A study of Mus musculus with 8 samples.

Results

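The endothelin and angiotensin systems were followed here through 9 genes in the fetal mouse heart, chosen by symbol from the deposited table: the ligand genes Edn1, Edn3 and Agt, the processing enzymes Ece1 and Ace, and the receptors Ednra, Ednrb, Agtr1a and Agtr2. All 9 were listed, in 17 of the 51414 transcript rows, which carry 26590 gene symbols. For each gene the row with the highest average of the genotype means was used, and the other rows of the 4 genes that had several were checked beside it. Hearts came from 4 Dio3+/+ and 4 Dio3-/- male fetuses on a C57BL/6J background, each heart from an individual mouse, and the labels name no treatment. Dio3 encodes the type 3 deiodinase, which inactivates thyroid hormones, so the comparison asks how these genes stand in a heart exposed to excess thyroid hormone. The knockout is carried in the germ line, was made on another inbred background before it was bred into C57BL/6J, and is present in every cell of the fetus. Sample titles place all 8 hearts at E13.5, the age field places Dio3-/- hearts 3 and 4 at E18.5, and the methods of the study name yet another day. If the age field is right, genotype and age cannot be told apart in any difference below, since only Dio3-/- hearts carry the later day. The deposited values are genotype means in RPKM (reads normalized for transcript length and library size), each with a coefficient of variation, which is the SD as a share of the mean. Values of single hearts were not used here.

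Endothelins are short vasoactive peptides that are cut from inactive precursors by the endothelin-converting enzyme Ece1 and act on the G protein-coupled receptors Ednra and Ednrb. In the embryo, Edn1 and Ednra direct the neural crest cells that build the pharyngeal arches and the outflow tract, and Edn3 and Ednrb serve the crest cells that become melanocytes and enteric neurons. In the renin-angiotensin system, renin cuts the liver protein angiotensinogen (Agt), the peptidase Ace makes angiotensin II, and the receptors Agtr1a and Agtr2 bind it. Agtr1a mediates vasoconstriction and growth responses, and Agtr2 is abundant in fetal mesenchyme and declines after birth.

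None of the 7 members that could be tested differed between genotypes at an adjusted p under 0.05 in limma, which was applied to log2(RPKM + 0.5). Over all genes, 2.15% of the 32703 tested rows passed. Ednrb, Ace, Agtr1a and Agtr2, 4 of the 7, had an unadjusted p under 0.05, as did 18.8% of all tested rows, and an unmoderated test for unequal variances on the RPKM values called 0 members. With 4 hearts per genotype that test has few degrees of freedom, and its share over all rows was not computed. Its 0 calls, here and below, therefore do not show an absence of change. Of the 7, 5 had a higher mean in Dio3-/- hearts (71.4%, against 63.0% of all tested rows), and their median log2 difference was 0.12 against 0.04 over all rows. Differences below are Dio3-/- minus Dio3+/+ on the log2(RPKM + 0.5) scale, which understates the change of genes with low values. Edn3 and Agt had no genotype mean above 1 RPKM and were not tested. In a whole heart, more cells of a type and more RNA per cell cannot be told apart.

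The knockout was checked first. Dio3 itself was listed at 0.35 RPKM in Dio3+/+ hearts, and Dio3-/- hearts averaged 0.13, both below the 1 RPKM filter, with coefficients of variation of 1.23 and 0.76, so its row separates the labels poorly. Klf9, a transcription factor induced by thyroid hormone, rose from 1.86 to 8.48 RPKM, a log2 difference of 1.93 (adjusted p = 5.7e-06 by limma, and 0.048 in the unmoderated test). The thyroid hormone receptor gene Thra was at 46.32 and 46.45 RPKM. The table itself gives no read depth, and whether reads from overlapping antisense genes were separated by strand is not given in the sources used here.

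RefSeq start sites (GRCm38.p6) were matched by symbol for 8 of the 9 genes, giving 12 windows of 250 bases before a start; Agtr1a had no entry. The genome build behind the deposited table is not given in the sources used here, so these windows are background to the genes and not part of the measurement. They are printed 5′ to 3′ on the strand of the gene for the members with an unadjusted p under 0.05 and for Agt, where TATAAA was found. Capitals mark the thyroid hormone receptor half-site AGGTCA, searched on both strands, and the TATA box TATAAA, also searched on both strands, where its reverse complement reads TTTATA. Only these exact strings were searched, so variant forms, such as the TATATAAG in the Agtr2 window, are not marked or counted.
Ednrb, chr14:103843702-103843951, minus strand: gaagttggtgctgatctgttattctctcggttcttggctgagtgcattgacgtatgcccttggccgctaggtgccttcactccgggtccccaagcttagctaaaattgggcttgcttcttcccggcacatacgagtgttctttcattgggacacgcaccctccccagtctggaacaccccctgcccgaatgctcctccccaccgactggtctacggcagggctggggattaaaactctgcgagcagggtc
Ace, upstream start, chr11:105967698-105967947, plus strand: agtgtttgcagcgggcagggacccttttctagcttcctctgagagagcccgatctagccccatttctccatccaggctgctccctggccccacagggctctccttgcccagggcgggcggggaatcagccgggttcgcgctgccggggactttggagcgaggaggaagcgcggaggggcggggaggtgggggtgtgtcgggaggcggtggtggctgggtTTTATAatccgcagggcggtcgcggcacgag
Ace, downstream start, chr11:105974939-105975188, plus strand: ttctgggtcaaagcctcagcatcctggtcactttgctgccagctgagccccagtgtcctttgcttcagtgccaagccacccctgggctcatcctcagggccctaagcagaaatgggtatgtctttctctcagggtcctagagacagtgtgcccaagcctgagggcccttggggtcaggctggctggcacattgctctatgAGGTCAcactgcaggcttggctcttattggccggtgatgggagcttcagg
Agtr2, chrX:21484374-21484623, plus strand: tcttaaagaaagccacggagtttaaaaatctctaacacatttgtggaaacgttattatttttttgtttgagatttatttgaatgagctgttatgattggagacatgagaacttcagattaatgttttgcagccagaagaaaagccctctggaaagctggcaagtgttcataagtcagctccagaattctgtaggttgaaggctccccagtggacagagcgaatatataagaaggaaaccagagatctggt
Agt, chr8:124569707-124569956, minus strand: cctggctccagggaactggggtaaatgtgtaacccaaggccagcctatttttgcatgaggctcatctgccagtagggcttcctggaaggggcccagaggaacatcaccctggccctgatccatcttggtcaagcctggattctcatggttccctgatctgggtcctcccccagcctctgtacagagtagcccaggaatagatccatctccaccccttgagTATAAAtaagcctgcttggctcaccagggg
The half-site was found in 1 of the 12 windows, starting 50 bases before the downstream Ace start, which lies 7241 bases after the upstream one, inside the gene. Among all 32536 distinct windows 14% held it on either strand, and 12.3% held the exact string TATAAA on either strand. That string was in 2 of the 12 windows. It started 30 bases before the Agt start and, as its reverse complement, 31 bases before the upstream Ace start. Which of the 2 Ace starts the 3 Ace rows were counted from is not given in the sources used here. The Ednrb and upstream Ace windows were rich in G and C (56.8% and 67.2%, against a median of 52.4% over all windows), and the Agtr2 window had 38.4%.

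In order of level, 3 members stood well above the rest in both genotypes. In Dio3+/+ hearts Ednrb had 53.25 ± 4.79 RPKM (SD, n = 4), Ece1 47.75 ± 3.34 and Ednra 22.97 ± 2.07, and these values exceed those of 95.2%, 94.6% and 87.5% of all gene symbols. Ednrb and Ece1 overlapped within 1 SD in Dio3+/+ hearts but not in Dio3-/- hearts, and Ednra lay below both without overlap. A middle group held Edn1 at 4.05 ± 0.77 RPKM, Agtr1a at 3.24 ± 0.45 RPKM and, in Dio3+/+ hearts only by its mean, Agtr2 at 7.30 ± 11.83 RPKM. Those 3 overlapped one another within 1 SD. Ace at 0.94 ± 0.13, Edn3 at 0.86 ± 1.30 and Agt at 0.31 ± 0.13 RPKM were the lowest in Dio3+/+ hearts, and neighbours among them overlapped too. In Dio3-/- hearts Edn1 and Agtr1a again overlapped, Ace lay apart below them, and Agt, Edn3 and Agtr2 closed the order with overlapping values under 1 RPKM.

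**Figure D1:**
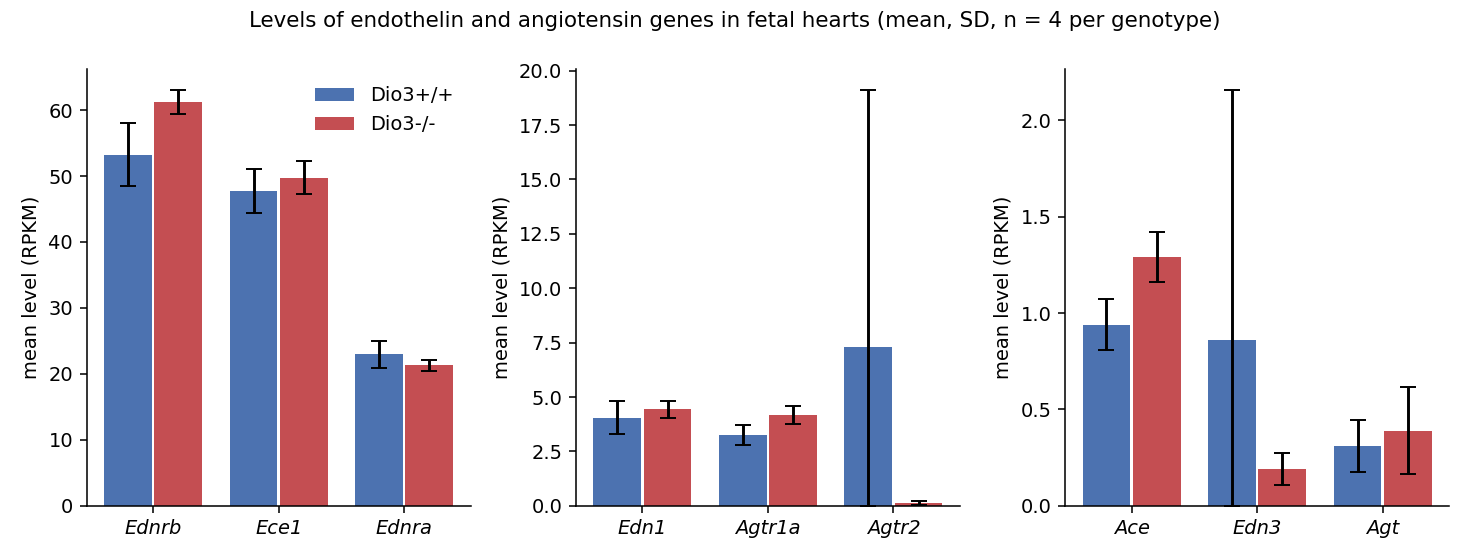
Mean level in RPKM of the 9 genes in Dio3+/+ (blue) and Dio3-/- (red) hearts, in 3 panels with separate linear axes from 0; error bars are the SD of 4 hearts and are cut at 0. Ednrb, Ece1 and Ednra lie above 20 RPKM in both genotypes, and the SD of Agtr2 and of Edn3 in Dio3+/+ hearts is larger than the mean.

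Among the ligands, Edn1 was the only endothelin gene above 1 RPKM. Edn1 was at 4.05 ± 0.77 RPKM in Dio3+/+ hearts, and Dio3-/- hearts averaged 4.44 ± 0.40, a log2 difference of 0.12 (95% CI, -0.15 to 0.39; adjusted p = 0.65 by limma). From the mean and SD, 4 Dio3+/+ hearts can lie no lower than 2.86 and no higher than 5.24 RPKM, and the Dio3-/- hearts between 3.80 and 5.08 RPKM, with the rounding of the printed values allowed for. These ranges overlap over the whole Dio3-/- range. Edn3, the ligand that prefers Ednrb, was at 0.86 ± 1.30 RPKM in Dio3+/+ hearts, and Dio3-/- hearts averaged 0.19 ± 0.08. Edn1 exceeded Edn3 by 4.71 times in Dio3+/+ and by 23.4 times in Dio3-/- hearts, where Edn3 is the uncertain term, its Dio3+/+ SD being larger than its mean. Edn2, the other endothelin gene, was at 0.15 and 0.18 RPKM.

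Ece1, which activates the endothelin precursors, had the smallest difference of the 7 tested members. Its row with the highest mean had 47.75 ± 3.34 RPKM in Dio3+/+ hearts, and Dio3-/- hearts averaged 49.72 ± 2.49, a log2 difference of 0.06 (95% CI, -0.08 to 0.19; adjusted p = 0.66 by limma). The next rows had 46.25 and 39.72 RPKM in Dio3+/+ and 47.15 and 41.69 RPKM in Dio3-/- hearts. The last Ece1 row, at 0.71 and 0.75 RPKM, lay far below the other 3 and was not tested.

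The mean of Ednrb was higher and that of Ednra lower in Dio3-/- hearts, and neither difference passed. Ednrb was at 53.25 ± 4.79 RPKM in Dio3+/+ hearts and at 61.25 ± 1.84 RPKM in Dio3-/- hearts, 15.0% higher, a log2 difference of 0.20 (95% CI, 0.06 to 0.34). The adjusted p was 0.13 by limma, so the difference did not pass. Given their means and SDs, Dio3+/+ hearts cannot exceed 60.8 RPKM and Dio3-/- hearts cannot fall below 58.0 RPKM, so any overlap is limited to that narrow band. All 3 Ednrb rows had a higher Dio3-/- mean, with 51.60 against 59.28 RPKM in the second and 46.06 against 52.60 RPKM in the last. Rows of 1 gene can share reads and are not independent.

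Ednra, the receptor that answers Edn1 in crest and smooth muscle cells, was at 22.97 ± 2.07 RPKM in Dio3+/+ hearts, and Dio3-/- hearts averaged 21.32 ± 0.85. The log2 difference was -0.11 (95% CI, -0.25 to 0.04; adjusted p = 0.44 by limma). The Dio3-/- hearts can only lie between 19.9 and 22.8 RPKM, inside the 19.7 to 26.2 RPKM open to Dio3+/+ hearts. A second row had 8.28 and 8.08 RPKM, a log2 difference of -0.03. As a ratio of levels per length, Ednrb exceeded Ednra by 2.32 times in Dio3+/+ and by 2.87 times in Dio3-/- hearts, and this ratio could not be tested because hearts cannot be paired across rows.

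Ace, which makes angiotensin II, was at 0.94 ± 0.13 RPKM in Dio3+/+ hearts, and Dio3-/- hearts averaged 1.29 ± 0.13, 37.2% higher, a log2 difference of 0.31 (95% CI, 0.08 to 0.55). The adjusted p was 0.15 by limma. Dio3+/+ hearts can reach no more than 1.15 RPKM and Dio3-/- hearts no less than 1.08 RPKM, so overlap is possible only between those values. The other Ace rows had 0.87 against 1.24 RPKM and 0.86 against 1.20 RPKM, with log2 differences of 0.34 and 0.32 (adjusted p = 0.11 and 0.13 by limma). Ace passed the 1 RPKM filter through its Dio3-/- mean alone.

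Agtr1a, the main angiotensin II receptor of vascular smooth muscle, was at 3.24 ± 0.45 RPKM in Dio3+/+ hearts, and Dio3-/- hearts averaged 4.16 ± 0.42, 28.4% higher. The log2 difference was 0.32 (95% CI, 0.09 to 0.54; adjusted p = 0.13 by limma). The Dio3+/+ hearts lie between 2.53 and 3.95 RPKM and the Dio3-/- hearts between 3.50 and 4.82 RPKM at the widest, so the groups may overlap. Its close paralog Agtr1b was listed at 0.00 and 0.02 RPKM, and the authors kept only uniquely mapping reads, which leaves reads shared by near-identical copies uncounted. Agt, the precursor of angiotensin II, was at 0.31 ± 0.13 RPKM in Dio3+/+ hearts, and Dio3-/- hearts averaged 0.39 ± 0.23. Its possible ranges, 0.11 to 0.52 and 0.05 to 0.74 RPKM, overlap over all of the Dio3+/+ range. Over the 7 tested members, 0 had means and SDs that keep every Dio3+/+ heart apart from every Dio3-/- heart, against 3.9% of all tested rows.

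**Figure D2:**
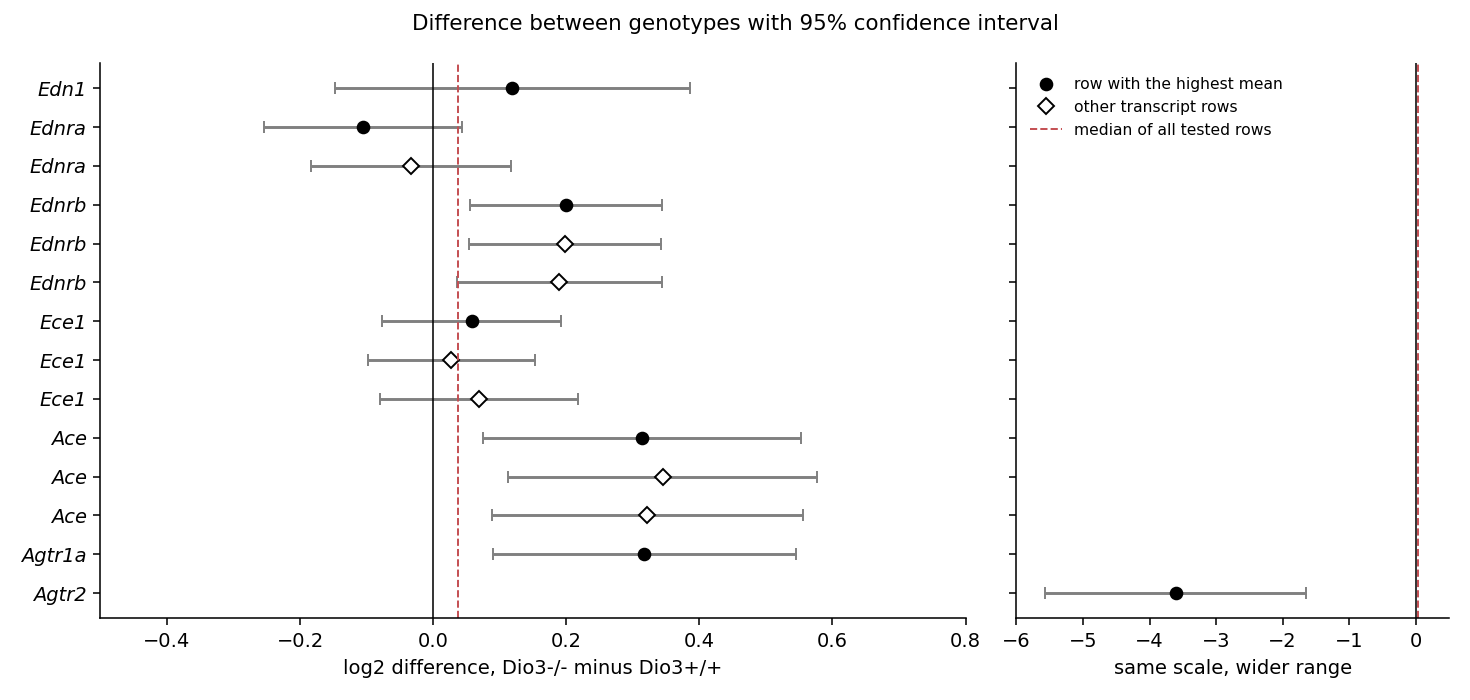
Log2 difference in RPKM (Dio3-/- minus Dio3+/+, pseudocount 0.5) with its 95% confidence interval for the 14 tested rows of the 7 tested genes; filled circles are the rows with the highest mean, open diamonds the other rows, the dashed line the median of all tested rows, and the right panel shows Agtr2 on a wider axis. The Ednrb, Ace and Agtr1a intervals lie above 0, those of Edn1, Ednra and Ece1 include 0, and that of Agtr2 lies below -1.

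Agtr2 showed the widest difference and the widest spread of all members. It was at 7.30 ± 11.83 RPKM in Dio3+/+ hearts, and Dio3-/- hearts averaged 0.14 ± 0.08, a log2 difference of -3.61 (95% CI, -5.57 to -1.65; adjusted p = 0.065 by limma). Of all 32703 tested rows, 1 had a lower log2 difference, Ibsp, a bone matrix gene named after its value was seen. With a coefficient of variation of 1.62, a mean of 7.30 can arise from 4 values only if the highest Dio3+/+ heart held 24.7 to 25.1 RPKM, between 84.6% and 85.9% of the sum. The other 3 Dio3+/+ hearts then averaged 1.37 to 1.50 RPKM, and how they share that average is not fixed. No Dio3-/- heart can have exceeded 0.27 RPKM. Without the highest Dio3+/+ heart the log2 difference was between -1.65 and -1.55, a value that has no test. Agtr2 passed the 1 RPKM filter through its Dio3+/+ mean alone, which that heart carries. With a pseudocount of 0.1 RPKM its adjusted p fell below 0.05 (log2 difference, -4.95; adjusted p = 0.033 by limma), and in the unmoderated test its adjusted p was 0.67.

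Edn3 had the same shape at a lower level. Its Dio3+/+ coefficient of variation of 1.51 requires a highest heart at 2.72 to 2.83 RPKM, 79.6% to 81.8% of the sum. The other 3 hearts averaged 0.21 to 0.23 RPKM, beside 0.19 RPKM in Dio3-/- hearts. Without the highest heart its log2 difference, -0.98 over all hearts, was between -0.09 and -0.04. Whether the high heart for Edn3 is also the high heart for Agtr2 cannot be told from means. Agtr1a, which binds the same ligand as Agtr2, had a coefficient of variation of 0.14 in the same Dio3+/+ hearts, and by the means Agtr1a made up 30.7% of the 2 angiotensin receptors in Dio3+/+ and 96.7% in Dio3-/- hearts. With Agtr2 taken from the other 3 Dio3+/+ hearts and Agtr1a from all 4, the Dio3+/+ share was 68.3% to 70.3%, so Agtr1a then had the higher mean of both receptors.

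A spread of this size was rare. Of the tested rows, 47 (0.144%), under 36 symbols, had a Dio3+/+ coefficient of variation of 1.5 or more, and 12 rows reached the value of Agtr2. Of those 47 rows, 40 had a lower mean in Dio3-/- hearts, but 39 of the 40 passed the 1 RPKM filter through their Dio3+/+ mean alone, so the choice of rows largely fixed that direction. The 40 include the embryonic myosin heavy chain Myh3 (14.23 and 0.72 RPKM, with a Dio3+/+ coefficient of 1.61), the myogenic factor Myog (9.78 and 1.17 RPKM), Myod1 (4.42 and 0.46 RPKM) and Ibsp (11.25 and 0.03 RPKM). They also include the homeobox genes Hoxc4, Hoxc5, Hoxc6 and En1, which pattern the trunk, limbs and head, and were named after their values were seen. The highest heart held 84.1% to 85.6% of the Dio3+/+ sum for Myh3. For Myod1, the fast skeletal troponin Tnnc2 and Agtr2 it held 84.6% to 85.9%. These shares follow from the coefficient of variation alone, and Myod1, Tnnc2 and Agtr2 all had 1.62. Whether the same heart was highest for these genes cannot be told from means. In Dio3-/- hearts 4 rows reached a coefficient of 1.5, and Agtr2 had 0.58.

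**Figure D3:**
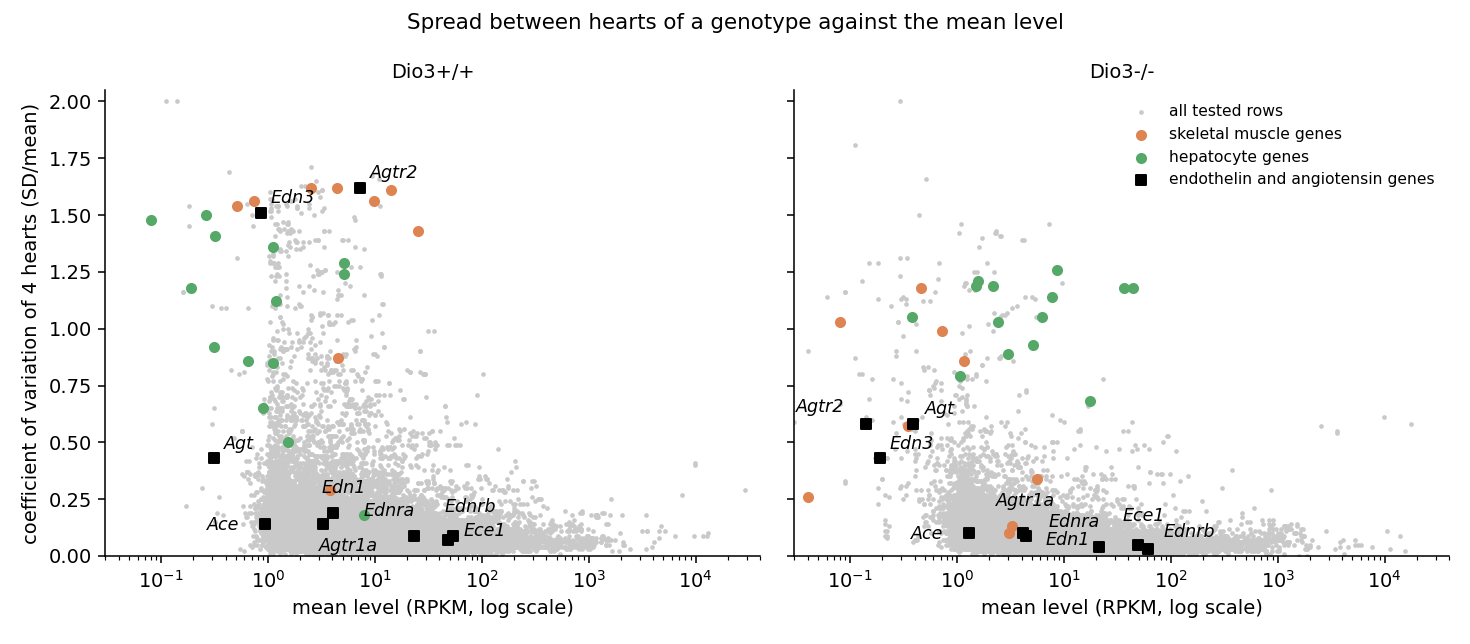
Coefficient of variation (SD divided by mean) of 4 hearts against the mean level in RPKM on a log axis, in Dio3+/+ (left) and Dio3-/- hearts (right); grey points are all tested rows, black squares the 9 genes, orange points skeletal muscle genes and green points hepatocyte genes. In Dio3+/+ hearts Agtr2 and Edn3 had coefficients of 1.62 and 1.51, near those of several skeletal muscle genes and of the hepatocyte gene Fgg (1.50). The muscle genes Myh8 and Tnnt3 lay at 0.29 and 0.87, and the skeletal muscle list was written after the table was seen. In both genotypes 6 members stay at or below 0.19.

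Markers of other cell types were read beside these genes. Over all tested rows, 63.0% had a higher mean in Dio3-/- hearts, 18.8% had an unadjusted p under 0.05 and 2.15% passed in limma. Of 9 skeletal muscle genes, a list written after the table was seen, 7 were tested, 7 had lower means in Dio3-/- hearts and 0 passed in limma or the unmoderated test (5 had an unadjusted p under 0.05 in limma), and their summed levels were 65.73 and 14.72 RPKM, Dio3+/+ first. Of 8 bone and cartilage genes, also listed late, 5 were tested, 5 had lower means and their sums were 37.72 and 15.62 RPKM. Myh3, Myod1 and Tnnc2 of the muscle list, and Runx2 and Sp7 of the bone list, passed the 1 RPKM filter through their Dio3+/+ mean alone. The filter thus partly fixed the direction of both lists. Ibsp had an adjusted p of 0.033 by limma and of 0.65 in the unmoderated test, passed the filter through its Dio3+/+ mean alone, and had a log2 difference of -4.47 that was between -2.66 and -2.53 without the highest Dio3+/+ heart. The tested genes of both lists had lower Dio3-/- means, as Agtr2 and Edn3 did, but both lists were written after the table was seen. Of their untested genes, Myf5, Pax7 and Acan had lower means and Spp1 and Matn1 higher ones. The part of muscle or bone RNA in the Agtr2 and Edn3 differences was not tested. Of 14 hepatocyte genes, 13 were tested, 13 had higher means in Dio3-/- hearts and 0 passed in either test (13 had an unadjusted p under 0.05 in limma), and their sums were 25.74 and 137.74 RPKM. Apob, Ttr, Fga, Fgb, Fgg and Ahsg passed the filter through their Dio3-/- mean alone, which partly fixed that direction. Alb was at 5.16 and 36.06 RPKM and Afp at 5.11 and 44.57 RPKM, each with a coefficient of variation above 1 in both genotypes. Agt, itself a liver product, was 1.26 times as high in Dio3-/- hearts, where Alb was 6.99 times as high. The part of liver RNA in the Agt values was not tested.

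Markers of the cell types known to carry these genes in the heart were read in both genotypes. Endothelial and endocardial markers, of cells that are a main source of Edn1, had 12 of 12 means higher in Dio3-/- hearts with 0 passing in either test (4 at an unadjusted p under 0.05 in limma), a median log2 difference of 0.10 and sums of 425.45 and 462.63 RPKM. The shares over all tested rows, beside each list here, were 63.0% higher, 18.8% at an unadjusted p under 0.05 and 2.15% passing in limma. Cdh5 was at 71.96 and 76.52 RPKM and Eng at 70.58 and 83.33 RPKM. The differences of Edn1, Ece1 and Ednrb, 0.12, 0.06 and 0.20, lie inside the 0.01 to 0.24 range of that list. Of 9 tested vascular smooth muscle and pericyte markers, 6 had higher means and 0 passed in the row used, although 4 of the 6 rows of Smtn did in limma and none of those 4 in the unmoderated test. Acta2 stood at 512.90 and 625.44 RPKM and Cnn1 at 118.91 and 117.15 RPKM. Myh11 of the same list was at 0.46 and 0.77 RPKM and was not tested. The 3 lower means were those of Cnn1, of Kcnj8 at 1.69 and 1.23 RPKM and of Notch3 at 7.10 and 5.60 RPKM. The Agtr1a difference of 0.32 lies inside the list's range of -0.34 to 0.42 only through Rgs5 at its upper end. Rgs5 had a Dio3-/- coefficient of variation of 0.47 (adjusted p = 0.45 by limma). The next highest marker was Acta2 at 0.29, so Agtr1a lay above every other tested marker of the list. Cardiomyocyte markers had 10 of 10 means higher, and the calcium release channel Ryr2 rose from 24.20 to 36.62 RPKM (adjusted p = 0.023 by limma, and 0.12 in the unmoderated test).

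By median log2 difference of the tested genes, the erythroid list stood at -1.45 and the neural crest and Schwann list at -0.11. Erythroid genes summed to 37090 and 12666 RPKM, with 5 of 6 tested genes lower, where 63.0% of all tested rows were higher. The embryonic globin Hbb-bh1 fell from 317.82 to 110.93 RPKM (adjusted p = 0.047 by limma, and 0.21 in the unmoderated test). The conflict in the age labels applies to this difference as well. Values are scaled to all reads, the median log2 difference of all rows was 0.04, and the part of globin reads in that shift was not tested. With both genotypes centred on that median, Ednrb stood at 0.16, Ace at 0.28 and Agtr1a at 0.28. Of 9 neural crest and Schwann markers 3 were tested, 1 was higher and 2 lower, and Sox10, a defining factor of crest cells that use Ednrb, was at 0.67 and 0.48 RPKM, far below Ednrb. Among melanocyte markers Mitf was at 16.94 and 19.10 RPKM, Tyr at 5.99 and 5.85 RPKM, and Tyrp1 at 0.00 and 0.01 RPKM. Mesenchyme and valve markers, from the cells where fetal Agtr2 is known, had 5 of 8 lower means and a median log2 difference of -0.24, with Col3a1 at 210.59 and 182.56 RPKM and Col1a1 at 203.93 and 168.30 RPKM. Twist1 at 16.14 and 12.09 RPKM and Pdgfra at 34.41 and 27.03 RPKM had Dio3+/+ coefficients of 0.51 and 0.55. Postn, Dcn and Tbx20 had higher means, and Tbx20, at 158.10 and 200.63 RPKM (0.34; adjusted p = 0.13 by limma), was the gene of the list with an unadjusted p under 0.05. No gene of the crest, melanocyte, mesenchyme, epicardial, macrophage, lung or thymus marker lists passed in limma or in the unmoderated test, and 3 had an unadjusted p under 0.05 in limma. Of all tested rows, 2.15% passed in limma and 18.8% had an unadjusted p under 0.05.

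The other components of the 2 systems gave 1 call, where 2.15% of all tested rows passed. Of 25 listed genes 24 were in the table and 15 were tested, 12 with higher and 3 with lower means in Dio3-/- hearts. That is 80.0% higher, against 63.0% of all tested rows, and their median log2 difference was 0.11 against 0.04 over all rows. Prep, a cytosolic prolyl peptidase that cuts angiotensin peptides, rose from 55.77 ± 2.79 to 67.78 ± 3.39 RPKM, a log2 difference of 0.28 (SE, 0.05; adjusted p = 0.035 by limma). That call was lost without the mean-variance trend, in the unmoderated test, after centring on the median of all rows and with coefficients of variation raised by 0.005. Agtrap, which drives internalization of the type 1 receptor, stood at 5.16 and 6.23 RPKM, a difference of 0.25 (adjusted p = 0.060 by limma), and the mineralocorticoid receptor Nr3c2 at 1.00 and 1.27 RPKM. Nr3c2 passed the filter of a mean above 1 RPKM through its Dio3-/- mean alone, which fixed its direction. Lnpep, an aminopeptidase that binds angiotensin IV, was at 36.52 and 42.90 RPKM, a difference of 0.23 (adjusted p = 0.094 by limma). The lowest differences were those of neprilysin (Mme), which degrades both peptides, at 8.21 and 6.20 RPKM, of Anpep at 7.05 and 6.61 RPKM and of Nln at 12.10 and 11.56 RPKM.

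Renin (Ren1) was listed at 0.11 and 0.03 RPKM, with a Dio3+/+ coefficient of variation of 1.58. Mas1 was at 0.06 and 0.05 RPKM, and the mast cell chymase Cma1 at 0.24 and 0.06 RPKM. Cyp11b2, which makes aldosterone, was listed at 0 in both genotypes. In all, 9 of the 24 listed genes had both means at or below 1 RPKM. The renin receptor Atp6ap2, by contrast, was at 11.99 and 12.67 RPKM, and Mtus1, which binds Agtr2 in the cell, was at 46.79 and 53.66 RPKM.

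Downstream of the receptors, 0 of 27 tested signalling genes passed in limma, with 6 at an unadjusted p under 0.05 and 0 called by the unmoderated test. Over all tested rows, 2.15% passed in limma and 18.8% had an unadjusted p under 0.05. The median log2 difference of the signalling genes was 0.05, with 17 means higher and 10 lower (63.0% higher, the same share as over all tested rows). The G protein subunit Gnaq, through which Ednra and Agtr1a raise calcium, was at 18.63 and 18.20 RPKM, and Gna11 at 22.59 and 24.77 RPKM. The highest differences were those of Rgs5, a pericyte gene that dampens Gq signals, at 9.20 and 12.46 RPKM (0.42), of the calcium channel Itpr2 at 4.75 and 5.84 RPKM (0.27) and of the endothelial nitric oxide synthase Nos3 at 11.69 and 13.73 RPKM (0.22). The lowest were those of Nfatc4 at 10.74 and 6.79 RPKM (-0.62), with a Dio3+/+ coefficient of variation of 0.64, of Rgs2 at 3.94 and 3.10 RPKM (-0.30) and of the phospholipase Plcb1 at 1.94 and 1.78 RPKM (-0.10).

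Of the 8 transcription factor genes known to depend on Ednra signals in pharyngeal arch crest, 5 were tested and 0 passed in limma, with 0 at an unadjusted p under 0.05 and 0 called by the unmoderated test. Hand2, which also builds the right ventricle, was at 53.72 ± 6.45 and 59.78 ± 2.99 RPKM (0.15), Msx1 at 3.10 and 3.36 RPKM (0.10) and Hand1 at 11.51 and 12.14 RPKM (0.07). Dlx5 was at 1.44 and 0.55 RPKM (-0.89) and Alx4 at 1.29 and 0.23 RPKM (-1.29), with Dio3+/+ coefficients of variation of 0.91 and 1.43. Dlx5 and Alx4 passed the 1 RPKM filter through their Dio3+/+ mean alone, so the filter fixed the direction of both. Without the highest Dio3+/+ heart, which held 75.6% to 78.8% of the sum, the Alx4 difference was between -0.33 and -0.24. Dlx3, Dlx6 and Gsc stayed below 1 RPKM in both genotypes. Hand1, Hand2 and Msx1 varied little between hearts, and the 5 arch factors of the list with lower means all had a Dio3+/+ coefficient of variation of 0.91 or more.

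**Figure D4:**
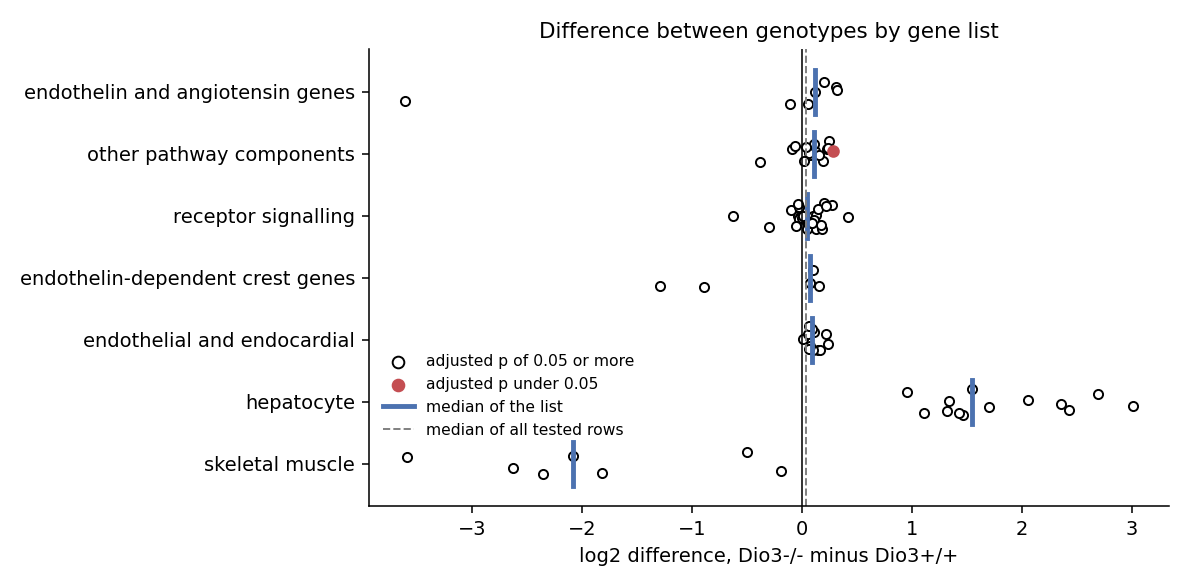
Log2 difference (Dio3-/- minus Dio3+/+, RPKM with pseudocount 0.5) of each tested gene by list, 1 point a gene in its row with the highest mean; red points passed an adjusted p under 0.05, blue bars are list medians and the dashed line is the median of all tested rows. Points of the endothelin and angiotensin genes lie near 0 except Agtr2 at -3.61, Prep is the red point at 0.28, and the hepatocyte and skeletal muscle lists have medians of 1.54 and -2.08.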

How the data were processed

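RNA of 8 fetal hearts was sequenced as single-end reads after removal of ribosomal RNA. The authors used NovoAlign (version 2.08) and uniquely mapping reads only, normalized linearly to the library with the lowest total, and deposited a mean in RPKM per genotype and transcript row. Beside it they deposited the coefficient of variation, which is a ratio (SD over mean), to 2 decimals. The unit is taken from the filter in the Methods, since the table does not name it, and the genome build is not given in the sources used here. The authors' fold changes and q values were not used. The deposited values carry no depth per sample, so their counting precision was not computed, and the range of mapped reads that the Methods state was not used.

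The design assumed values for single hearts, but the table held only summaries. Each mean was taken as log2(RPKM + 0.5), its SD was approximated from the coefficient of variation by the delta method, and variances on 6 residual degrees of freedom were shrunk by limma (version 3.58.1, run in R 4.3.3) toward a trend on mean level, with 3.52 prior degrees of freedom. The log of a mean stands in for the mean of logs, which is rough for widely varying genes. Benjamini-Hochberg adjustment covered all 32703 rows (14657 symbols) with a genotype mean above 1 RPKM. Bounds on single hearts follow from the mean and SD of 4 values that are not negative, none of which can lie beyond 1.5 SD, with rounding of the printed values allowed for. The test was checked on simulated data, where it called 169 of 200 changed rows and 11 unchanged rows. Both simulated genotypes had the same coefficient of variation in each row. The check therefore does not cover rows whose spread differs between genotypes, such as Agtr2, Edn3 and Ibsp. P values measure the spread between hearts.

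The genes named were the 9 members, called genes of the other component, signalling and crest lists with the 3 highest and 3 lowest differences of each, Dio3, Klf9 and Thra, and from marker lists mainly the 2 highest genes and those with a coefficient above 0.5. Others are described for their role or are said to be chosen later. Members and lists were chosen with earlier results of these data known. Likeness of pattern was not computed from 2 means. Alternatives were pseudocounts of 0.1 and 1, no filter, a mean above 5 RPKM, no trend, Welch's test on RPKM, 1 row per gene, centring, coefficients raised by 0.005, rows with a coefficient above 0.5 left out, second rows, and ratios without a pseudocount. Summaries used Python (version 3.11.15), pandas (2.3.3) and matplotlib (3.10.9).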

Additional observations from a re-analysis of the deposited data

How the results depend on the processing

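The number of members passing an adjusted p under 0.05 was 0 with limma and remained 0 in 9 of 10 alternatives. With a pseudocount of 0.1 RPKM it was 1, Agtr2 (log2 difference, -4.95; adjusted p = 0.033 by limma). The adjusted p of Agtr2 ranged from 0.033 to 0.67 over 8 alternatives, the highest from Welch's test. With the mean filter at 5 RPKM only 3 members were tested and 2 of them were higher. The single call among other components, Prep, became 0 calls without the mean-variance trend, with Welch's test, after centring and with each coefficient of variation raised by 0.005. Counts for the receptor signalling and crest lists were 0 in all 10 alternatives. No member's difference changed sign, second rows and ratios of the means included. Without the highest Dio3+/+ heart, an alternative chosen after seeing the data, Agtr2 moved to between -1.65 and -1.55, Edn3 to between -0.09 and -0.04, Alx4 to between -0.33 and -0.24 and Ibsp to between -2.66 and -2.53. Leaving out each replicate in turn was not run, since only genotype means were given. No paired analysis was possible because the table holds no values for single hearts. Differences under 1 RPKM are limited by the 2 printed decimals.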
